A study of Rattus norvegicus with 24 samples.

Results

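BMS-21 was compared with its vehicle after 1 h of treatment in INS-1 cells, an insulin-secreting line grown from a rat insulinoma and a common stand-in for pancreatic beta cells. BMS-21 is known here by its code name alone. The comparison used 8 of the series' 24 libraries, 4 of cells given 1 µM BMS-21 and 4 of cells given DMSO at an equivalent concentration (Control). It covered every gene with a mean normalised read count of at least 10 over these 8 libraries, which was 12697 of the 26404 genes in the deposited table. All groups were held for 90 min at 3 mM glucose and then moved to fresh medium at 11 mM glucose together with the treatment, so both groups had passed from low to higher glucose. Some results below also use 4 libraries of cells given 100 nM GLP-1 (glucagon-like peptide 1) for 1 h, and 4 libraries each of BMS-21 and Control at 6 h. The labels do not describe the replicates as independent cultures, and each p-value therefore speaks of the spread among these libraries, which may be technical. The fits used here draw a gene's spread partly from other genes. A p-value can therefore be much smaller than the gene's own 4 values per group would give.

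As background, the GLP-1 receptor of beta cells couples to the stimulatory G protein and raises cAMP, which activates protein kinase A and the exchange factor EPAC. Protein kinase A phosphorylates the transcription factor CREB, and CREB with its CRTC coactivators switches on immediate early genes, whose transcription needs no new protein. Many of these genes encode transcription factors, while others encode brakes that end the signal, such as salt-inducible kinase, RGS proteins, phosphatases and the CREM repressor ICER.

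The 8 libraries held 10667350 to 12659158 reads assigned to genes, with at least 1 read for 15984 to 16197 genes. A floor of 3 reads corresponded to 0.237 to 0.281 RPM, which covers counting error only. Of the 10 beta-cell markers examined, all were present in every library, from 665 normalised counts for Mafa to 117552 for Ins1 at the extremes. Of 11 defining markers of other cell types, 4 (Sst, Cela1, Krt19 and Ptprc) were at 0 in all 8 libraries and only Gcg and Ghrl, the genes of glucagon and ghrelin, averaged 10 or more. The summed level of the 11 was 94.9 to 120 in Control and 125 to 136 with BMS-21, and most of it was Gcg, at 77.3 to 98.8 and 99.5 to 111. Over a longer list of 21 markers of other cells in the table the summed levels overlapped, at 999 to 1170.1 in Control and 1017 to 1154 with BMS-21. Of these 21, 16 averaged under 10, and the 5 tested were Gcg, Ghrl, Krt7, Kdr and Sox9. Most of the longer sum thus lay in Krt7, Kdr or Sox9, so markers of other cells were not all near 0. Of the 5, Sox9 alone passed (2 genes with the block), at a log2 change of 0.89 ± 0.222 (adjusted p = 0.0137). The Sox9 call was lost without Control replicate 2 or 4 (adjusted p = 0.0596 and 0.0587). The part of these genes in the results below was not tested. In such bulk RNA more cells of a type and more RNA per cell cannot be told apart.

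At 1 h, 450 genes were higher and 301 lower with BMS-21 than in Control, which together are 5.91% of the genes tested (3.54% higher and 2.37% lower). The threshold was a Benjamini-Hochberg adjusted p under 0.05 in limma, fitted to log2 of the normalised count plus 1. Changes were mostly small: 498 of the 751 called genes changed by less than 1.5-fold. The median called increase was 1.38-fold and the median called decrease 1.28-fold. Large changes ran upward. At least 2-fold, 99 genes rose (0.78% of those tested) and 17 fell (0.134%). At least 4-fold, 30 genes rose and 0 fell, and 12 genes rose at least 8-fold. Of the called genes, 745 moved in the direction of the call in all 4 pairs of same-numbered libraries, and 699 had groups that did not overlap. Both counts follow largely from the call, which used the same libraries. Among all genes tested, 10.6% had groups without overlap (5.65% with BMS-21 higher and 4.99% with it lower). The share with all 4 pairs in 1 direction is not given over all genes. A fit that blocked on replicate number gave 851 higher (6.7%) and 700 lower genes (5.51%), together 12.2% of those tested. Of the 751 calls, 749 were among them. Counts of list members given below stand against 5.91% of all genes called without the block and 12.2% with it. Replicates 1 and 2 alone gave 511 higher and 314 lower genes, and replicates 3 and 4 alone gave 318 and 179. Scaling by library totals moved the median of all genes by -0.03 on the log2 scale and changed the split to 380 higher and 445 lower.

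The 3 NR4A orphan nuclear receptors, transcription factors that act without a known hormone, all rose, with a median log2 change of 4.31 against 0.000555 over all genes tested. Nr4a1 had 450.4, 445, 445 and 464 normalised counts in Control replicates 1 to 4 and 9283, 8433, 8952 and 9252 with BMS-21, a 19.9-fold rise (log2 4.31 ± 0.039 SE, adjusted p = 8.28e-28). The replicates differed little in either group, and the groups were far apart. Nr4a2 rose 19.8-fold, from 97.8, 109.9, 74.4 and 90.6 to 1953, 1836, 1635 and 1998 (adjusted p = 4.73e-12). Nr4a3 rose 16.8-fold, from 74.8, 75.9, 64.9 and 101 to 1569.7, 1356, 971 and 1493 (adjusted p = 7.43e-06). Replicate 3 was the lowest library of each group for both Nr4a2 and Nr4a3, while the order of the other replicates differed between the groups. With replicates 3 and 4 alone the Nr4a3 log2 change was 3.88 (adjusted p = 0.130).

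**Figure D1:**
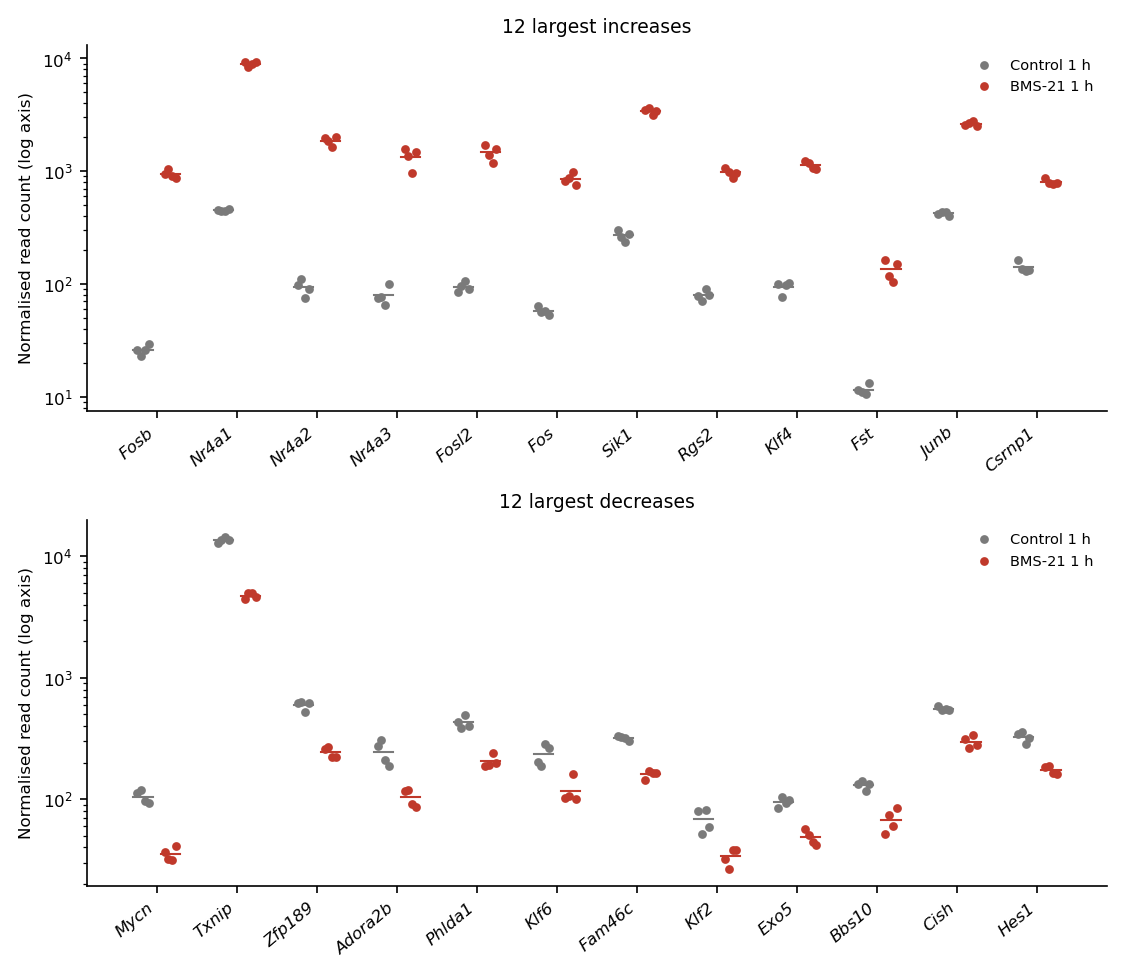
Normalised read counts (log axis) of the 12 largest increases and the 12 largest decreases in each of the 4 Control and 4 BMS-21 libraries at 1 h. Points are libraries in the order of replicates 1 to 4 and bars are group means. Groups that do not overlap were a condition for choosing these 24 genes.

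AP-1, a dimer of a FOS and a JUN protein, binds DNA as a product of immediate early genes. Of the 13 AP-1 and related bZIP genes tested, 10 rose and 0 fell, with a median log2 change of 1.00. That is 76.9% called, against 5.91% of all genes tested. Fosb rose most of all genes in the comparison, by 34.9-fold: its 4 Control libraries held 25.9, 23.0, 25.8 and 29.5 normalised counts and the BMS-21 libraries 945, 1047, 898 and 871 (log2 5.12 ± 0.0916, adjusted p = 9.44e-22). Fos rose 14.7-fold, from 63.3, 55.9, 57.2 and 52.9 to 824, 875, 978 and 750.2 (adjusted p = 5.35e-20). Fosl2, another FOS-family subunit, rose 15.4-fold, from 85.3, 94.9, 106 and 89.6 to 1709.9, 1406, 1181 and 1574 (adjusted p = 1.32e-12). The JUN genes rose by smaller folds. Junb went from 419.8, 435, 438 and 402 to 2581, 2662, 2772 and 2527, a 6.21-fold rise (adjusted p = 4.83e-22). Jund, already abundant in Control, rose 2.00-fold, from 2138 ± 58.1 to 4281 ± 218 (SD, n = 4, adjusted p = 2.82e-15), while Jun had a log2 change of 0.51 (adjusted p = 0.000541). The small MAF genes Maff and Mafk and the stress-inducible Atf3 were among the other members that rose, at log2 1.83, 0.34 and 0.66. Batf3 and Jdp2 had log2 changes of -0.02 and 0.03 and did not pass.

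Of the CREB, CRTC and SIK regulators, 1 was among the 12 largest increases. Sik1, the salt-inducible kinase that phosphorylates CRTC coactivators and keeps them out of the nucleus, rose 12.6-fold, from 302, 262, 237 and 276 to 3477, 3606, 3129 and 3393 (log2 3.66 ± 0.0628, adjusted p = 1.12e-18). Crem, which from an internal promoter makes the repressor ICER, rose 4.04-fold, from 1037, 1033, 1106 and 1190.3 to 5030.3, 4466, 3421 and 4913 (adjusted p = 0.000107). The Crem groups did not overlap, which for Sik1 was a condition of its choice. The table gives 1 value per gene, so the ICER transcript is not separated from the longer CREM forms. With replicates 3 and 4 alone the Crem log2 change was 1.84 (adjusted p = 0.194). Of the 13 CREB, CRTC and SIK regulators tested, these 2 rose and Camkk1, a kinase upstream of CaM kinases, fell (log2 -0.26 ± 0.0636, adjusted p = 0.0118, or 0.0617 without Control replicate 4). Calls were thus 23.1% of the list, against 5.91% of all genes tested. Sik2, Sik3, Crtc1 and Crtc2 had log2 changes of -0.0017, -0.07, -0.15 and -0.03, none past the threshold.

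The genes named as largest increases were looked up in the RefSeq promoter table of the rat build GRCr8, and 2 motifs were searched on both strands from 250 bases before to 50 after each start. The first was the full cAMP response element, TGACGTCA. The other was its core, TGACG, which on the opposite strand appears as CGTCA and which each full element holds on both strands. The table had a window for 8 of the 12, and 5 of the 8 held a core and 0 the full element. The windows of these 5 are shown because they hold the core. Fosb, Fosl2 and Klf4, whose windows held none, rose as well, as did the 4 genes with no window in the table. The sequences are printed up to the last base before the start, with the cores in capitals. Crem is added, chosen after its values were seen, with the window of its 3 starts that held the most full elements. The coordinates are those of GRCr8, while the counts come from Rnor_5.0.
Nr4a1, chr7:134259888-134260137, plus strand: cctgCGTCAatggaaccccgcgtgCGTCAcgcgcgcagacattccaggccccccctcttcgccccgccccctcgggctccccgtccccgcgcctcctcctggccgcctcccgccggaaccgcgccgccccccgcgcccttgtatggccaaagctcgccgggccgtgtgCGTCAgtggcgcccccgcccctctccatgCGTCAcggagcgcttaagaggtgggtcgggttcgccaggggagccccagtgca
Nr4a2, chr3:62104888-62105137, minus strand: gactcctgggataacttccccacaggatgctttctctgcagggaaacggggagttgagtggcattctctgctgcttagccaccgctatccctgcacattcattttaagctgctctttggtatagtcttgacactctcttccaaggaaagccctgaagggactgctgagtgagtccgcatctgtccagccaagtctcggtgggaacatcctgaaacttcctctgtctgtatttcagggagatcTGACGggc
Sik1, chr20:9958647-9958896, minus strand: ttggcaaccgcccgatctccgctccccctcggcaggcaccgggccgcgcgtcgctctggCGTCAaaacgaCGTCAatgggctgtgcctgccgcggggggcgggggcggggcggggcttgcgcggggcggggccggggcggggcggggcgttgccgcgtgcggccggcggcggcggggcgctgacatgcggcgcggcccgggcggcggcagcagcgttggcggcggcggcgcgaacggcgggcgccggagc
Rgs2, chr13:58352667-58352916, minus strand: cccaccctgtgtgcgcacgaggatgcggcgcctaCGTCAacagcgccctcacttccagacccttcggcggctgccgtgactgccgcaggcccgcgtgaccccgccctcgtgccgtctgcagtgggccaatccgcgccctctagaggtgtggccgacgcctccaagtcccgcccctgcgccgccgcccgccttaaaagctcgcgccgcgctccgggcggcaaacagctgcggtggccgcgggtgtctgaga
Junb, chr19:40080876-40081125, plus strand: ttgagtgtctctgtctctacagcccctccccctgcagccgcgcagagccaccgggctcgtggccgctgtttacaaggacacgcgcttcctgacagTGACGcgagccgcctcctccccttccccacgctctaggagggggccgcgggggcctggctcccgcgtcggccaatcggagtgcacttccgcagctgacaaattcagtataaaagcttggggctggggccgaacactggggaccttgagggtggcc
Crem, chr17:58985240-58985489, plus strand: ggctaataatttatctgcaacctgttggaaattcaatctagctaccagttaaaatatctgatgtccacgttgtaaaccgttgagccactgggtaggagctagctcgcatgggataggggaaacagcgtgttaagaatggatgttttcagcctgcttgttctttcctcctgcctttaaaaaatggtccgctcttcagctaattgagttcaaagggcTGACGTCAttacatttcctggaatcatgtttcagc

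Nr4a1 carried 4 cores, the nearest 53 bases before the start. Sik1 carried 2, which lay 180 and 191 bases before it, while Nr4a2, Rgs2 and Junb carried 1 each at 8, 216 and 155 bases. Crem carried a full element 35 bases before this start. Over all 33469 windows of the table, 21.2% held the core and 1.83% the full element. A core was found for 51.8% of the 332 called higher genes with a window, for 26.7% of the 225 called lower genes and for 33.4% of the 9091 tested genes with a window. The full element was found for 11.7%, 2.67% and 3.44% of these. The E-box CACGTG was in 11.4%, 9.33% and 10.1%, TATAAA in 9.94%, 6.67% and 6.52%, and the CArG box (CC, then 6 bases that are each A or T, then GG) in 1.20%, 2.67% and 1.26%. Fewer than 80% of the genes of each set had a window (73.8%, 74.8% and 71.6%), so the shares describe the matched genes and are void as a comparison of the sets. A match is a run of letters and not a site shown to be bound.

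On the list of transcripts that CREB is known to drive, 11 of 17 tested rose and 0 fell, with a median log2 change of 0.79. That is 64.7% called, against 5.91% of all genes tested. This list, like the others, was chosen with earlier results of these data known. Its count may be in part fixed by that choice, and some members are counted in other lists too. Rgs2, a protein that speeds the shut-off of G-protein alpha subunits, rose 12.1-fold, from 77.6, 70.9, 90.6 and 79.4 to 1074, 986, 868 and 969 (adjusted p = 6.3e-20). Gem, an RGK-family GTPase that lowers calcium channel activity at the cell surface, rose 4.15-fold, from 609 ± 20.3 to 2537 ± 213 (adjusted p = 1.12e-18). Dusp1, a phosphatase that inactivates MAP kinases, rose 3.07-fold, from 951 ± 54.4 to 2924 ± 153 (adjusted p = 5.86e-18). Irs2, the insulin receptor substrate through which cAMP is known to support beta-cell survival, was already abundant and rose 2.15-fold. Its libraries held 5641, 5440.0, 5909 and 5847 in Control and 12166, 11799, 12349 and 12809 with BMS-21, with no overlap (log2 1.11 ± 0.035, adjusted p = 4.31e-17). Bdnf, Areg, Ppargc1a and Bcl2, on the same list, had log2 changes of 0.07, 0.11, 0.15 and 0.28 and did not pass.

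Brakes on signalling were divided. Among 13 RGS and RGK genes tested, 4 rose and 0 fell: besides Rgs2 and Gem these were Rgs16 (1.81-fold, adjusted p = 3.21e-12) and Rem2 (log2 0.20, adjusted p = 0.00886). The median of this list was 0.05 and its called share 30.8%, against 5.91% of all genes tested. Of 15 MAP kinase phosphatases and Sprouty proteins, 7 rose and 2 fell (60% called), with a median of -0.01. Dusp10, which acts on JNK and p38, rose 2.44-fold, from 189.8, 188, 195 and 181 to 431, 466, 456 and 494 (adjusted p = 5.61e-13). Members of 1 family went both ways, since Spry1 rose (log2 0.84 ± 0.0902, adjusted p = 3.93e-07) and Spry2 fell (log2 -0.62 ± 0.1, adjusted p = 0.000151), as did Dusp7 (log2 -0.60 ± 0.108, adjusted p = 0.000519). Spry2 and Dusp7 were chosen after their values were seen.

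Among 17 other immediate early genes tested, 8 rose and 2 fell (58.8% called, against 5.91% of all genes), with a median log2 change of 0.58. Csrnp1, a nuclear protein induced by growth signals, rose 5.71-fold, from 162, 137, 129.7 and 133 to 871, 790.2, 763 and 793 (adjusted p = 5.95e-18). The polo-like kinase Plk2 rose 3.78-fold, from 278 ± 12.3 to 1054 ± 66.8, and Plk3 rose 1.61-fold (adjusted p = 1.11e-17 and 4.22e-09). Egr1, the zinc-finger factor that gives the family its name, had a log2 change of 2.12 ± 0.149 (adjusted p = 0.000179). Ier5 went the other way, at log2 -0.85 ± 0.109 (adjusted p = 5.52e-06), while Srf and Sgk1, with log2 changes of -0.01 and -0.09, did not pass. Egr1 and Ier5 were chosen after their values were seen.

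Genes of mRNA decay and growth arrest also moved at 1 h. Of 15 ZFP36, BTG/TOB and deadenylation genes tested, 6 rose and 1 fell (46.7% called, against 5.91% of all genes), with a median of 0.03. With the block 6 rose and 2 fell, while that fit called 12.2% of all genes. The antiproliferative genes Btg2, Btg1 and Tob1 rose 5.11-fold, 2.88-fold and 2.25-fold (adjusted p = 2.37e-08, 5.55e-15 and 1.11e-15). Btg1 reached 12009.7 ± 609.8 normalised counts from 4166 ± 287. Zfp36, which binds AU-rich elements and hastens decay of early transcripts, fell 1.79-fold, from 316 ± 27.2 to 176 ± 20.6 (adjusted p = 1.39e-07). The 6 CCR4-NOT and PAN genes had log2 changes between -0.06 and 0.08 and none passed.

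The Kruppel-like factors, zinc-finger regulators of growth and differentiation, split with 1 large increase among decreases. Of 12 tested, 2 rose and 6 fell (66.7% called, against 5.91% of all genes), with a median log2 change of -0.27. Klf4 rose 11.9-fold, from 101, 76.9, 98.2 and 102 to 1222, 1171, 1065 and 1047 (log2 3.57 ± 0.0824, adjusted p = 1.12e-18). Klf10, a TGF-beta-inducible repressor, fell 1.83-fold, from 3300.4 ± 72.3 to 1798 ± 46.7 (adjusted p = 7.47e-15). Klf6 fell 2.01-fold, from 203, 187, 287 and 265 to 102, 106, 161 and 100.1. Replicates 3 and 4 were the higher Control libraries of Klf6, and the adjusted p went from 0.00808 to 2.09e-16 with the block. Klf2 fell 1.98-fold, from 79.5, 51.9, 82.0 and 59.1 to 32.1, 26.5, 38.2 and 37.9 (adjusted p = 0.000339), and Klf3 and Klf5 had log2 changes of -0.58 and -0.83 (adjusted p = 1.25e-05 and 1.67e-05). The 2 that rose did so by unequal amounts, Klf13 having a log2 change of 0.46 ± 0.136 (adjusted p = 0.0442), which no longer passed with library totals (0.0603) or in DESeq2 (0.251).

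Txnip encodes the thioredoxin-interacting protein, which is known to be driven by glucose through ChREBP and to limit glucose uptake and thioredoxin activity. It was the most abundant of the strongly lowered genes, with 12826, 13734, 14459.5 and 13754 normalised counts in Control and 4447, 4954, 4967 and 4609.9 with BMS-21, a 2.89-fold fall (log2 -1.53 ± 0.0406, adjusted p = 5.86e-18). The lowest Control library held more than 2 times the highest BMS-21 library. On the list of TXNIP, its arrestin-domain relatives and the ChREBP partners, 5 of 9 tested fell and 0 rose, with a median of -0.25. That is 55.6% called, against 5.91% of all genes tested. The relatives Arrdc3 and Arrdc4 fell 1.86-fold and 1.61-fold (adjusted p = 9.43e-08 and 1.54e-09), and Pklr, the pyruvate kinase gene of liver and beta cells that ChREBP drives, fell 1.19-fold (adjusted p = 0.00847). The transcripts of ChREBP itself (Mlxipl) and its partner Mlx had log2 changes of -0.09 ± 0.0559 and -0.02 ± 0.0412, neither past the threshold. Mlxipl passed with the block (adjusted p = 0.00152).

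The largest decrease by the naming rule was Mycn, a MYC-family growth regulator, which fell 2.91-fold, from 112, 118, 96.3 and 93.7 to 37.0, 32.0, 31.7 and 41.1 (adjusted p = 1.13e-08). Zfp189, a zinc-finger gene, fell 2.47-fold, from 621, 636, 525 and 617 to 260.0, 269.7, 221 and 221 (adjusted p = 1.52e-11). Adora2b, the Gs-coupled adenosine receptor A2B, fell 2.32-fold, from 272, 308, 209 and 187 to 118, 119, 90.4 and 86.4 (adjusted p = 0.000489). In Adora2b replicates 1 and 2 were the higher libraries of both groups. Phlda1, a pleckstrin-domain gene induced by growth factors, fell 2.10-fold, from 436, 389, 495 and 402 to 189, 190.1, 241 and 198 (adjusted p = 5.67e-09). Cish, a suppressor of cytokine and growth hormone signalling, fell 1.88-fold, from 585, 547, 553 and 539.6 to 314, 262, 336 and 277 (adjusted p = 1.37e-09). The other decreases of this size were Fam46c, a poly(A) polymerase gene, Exo5, a DNA exonuclease, and Bbs10, a chaperonin-like gene of the primary cilium. Their Control libraries held 303 to 332, 85.3 to 105 and 117 to 140 normalised counts, and their BMS-21 libraries 145 to 171, 42.1 to 56.5 and 51.6 to 85.3. Their folds were 1.99, 1.95 and 1.95 (adjusted p = 7.43e-10, 9.4e-06 and 1.56e-05), and groups without overlap were a condition of their choice.

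Notch signalling passes from a DLL or JAG ligand to a NOTCH receptor and then to HES and HEY repressors. Hes1, the first target of the pathway, fell 1.87-fold, from 344, 357, 285 and 321 to 184, 188, 163 and 161 (adjusted p = 2.15e-08). The ligand Dll1 fell 1.65-fold, from 40.2 ± 3.17 to 24.0 ± 2.24 (adjusted p = 0.00826), and lost the call in DESeq2 (adjusted p = 0.0652). Of the 10 genes of this list tested, 3 fell and 1, the coactivator Maml1, rose (log2 0.23 ± 0.0582, adjusted p = 0.0154). Calls were thus 40% of the list, against 5.91% of all genes tested. The third gene to fall was Hes6, a HES relative (log2 -0.31 ± 0.0798, adjusted p = 0.0178). Maml1 lost its call without Control replicate 4 or BMS-21 replicate 4 (adjusted p = 0.0510 and 0.0534) and in DESeq2 (0.0627), and Hes6 lost its own without Control replicate 1 or BMS-21 replicate 4 (0.0841 and 0.091). The receptors Notch1 and Notch2 had log2 changes of 0.02 and -0.06 and did not pass.

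Activin, TGF-beta and BMP ligands signal through SMAD proteins. Of the 29 genes of this group tested, 5 rose and 1 fell without the block, and 9 rose and 2 fell with it. The median was 0.0036. The unblocked calls were 20.7% of the group, against 5.91% of all genes tested, while the blocked fit called 12.2% of all genes. Fst encodes follistatin, a secreted protein that binds and blocks activin, and rose 10.6-fold from a low level: its libraries held 11.5, 11.0, 10.5 and 13.2 normalised counts in Control and 163, 118, 104 and 152 with BMS-21 (log2 3.41 ± 0.168, adjusted p = 3.17e-13). Inhba, the activin A subunit, had a log2 change of 0.84 ± 0.191 (adjusted p = 0.00612). The dominant-negative helix-loop-helix genes Id4 and Id2 rose 3.47-fold and 1.61-fold (adjusted p = 5.2e-05 and 1.68e-07), and the decoy receptor Bambi fell 1.86-fold, from 628 ± 72.4 to 337 ± 25.4 (adjusted p = 8.4e-09). Receptors and SMAD transducers such as Acvr1b, Tgfbr1, Smad2 and Smad4 had log2 changes of -0.11, -0.02, -0.08 and 0.00055, none past the threshold.

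Smad7, the inhibitory SMAD of this pathway, did not pass in limma without the replicate block and passed with it. Its Control libraries held 1005, 729, 579 and 683 normalised counts and its BMS-21 libraries 502, 389, 233 and 339. The groups did not overlap and each replicate fell by a similar factor, yet Control alone spread from 579 to 1005. The log2 change was -1.06 with an SE of 0.279 and an adjusted p of 0.108 without the block. With it the SE was 0.0506 and the adjusted p 3.03e-29. The 4 same-numbered pairs had log2 ratios of -0.999, -0.905, -1.31 and -1.01. The blocked SE is drawn toward the spread of other genes, and the pairing by number is not settled. Without the block, edgeR and DESeq2 both called it (adjusted p = 0.000256 and 0.00691). Myc, the founding member of the MYC family, had 819, 867, 1352 and 1098 in Control and 447, 449, 801 and 539 with BMS-21 (log2 -0.90, adjusted p = 0.13 without and 2.23e-31 with the block in limma), and it also passed unblocked in edgeR (0.000808) and DESeq2 (0.0192). Prok2, a secreted prokineticin, had 228, 216, 127 and 158 and 111, 115, 88.6 and 63.2 (log2 -0.94, adjusted p = 0.0875 and 8.53e-13), with unblocked adjusted p of 0.0013 in edgeR and 0.0137 in DESeq2. Myc was highest in replicate 3 of both groups and Smad7 was lowest there, so the replicates differed in opposite directions for these 2 genes. In limma, 802 genes passed with the block only. These genes were chosen after their values were seen.

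**Figure D2:**
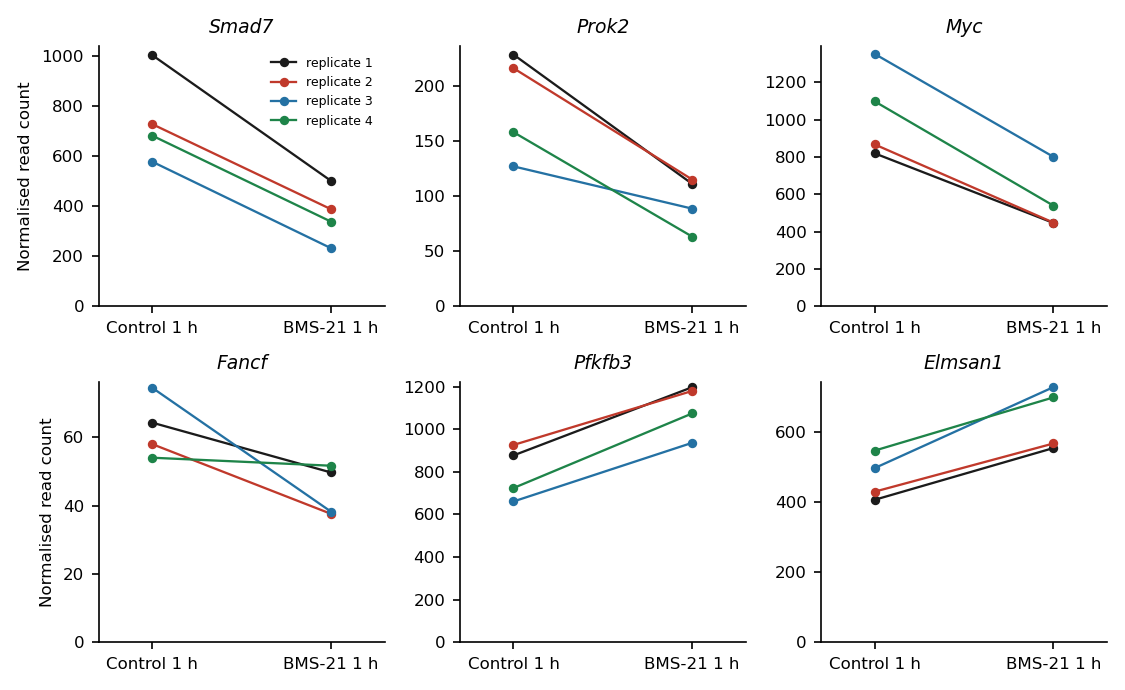
Normalised read counts (linear axis from 0) in Control and BMS-21 at 1 h for the 6 genes of largest change that passed in limma with the replicate block only and whose groups did not overlap, of which all but Fancf also passed without a block in edgeR and DESeq2. Lines join libraries of the same replicate number, and the line slopes down in all 4 pairs for Smad7, Prok2, Myc and Fancf and up in all 4 for Pfkfb3 and Elmsan1.

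Transcription factors of the beta cell moved at 1 h while the hormone genes moved little. Of 21 beta-cell identity and glucose-sensing genes tested, 5 rose and 2 fell (7 and 3 with the block), with a median of 0.03. The unblocked calls were 33.3% of the list, against 5.91% of all genes tested, while the blocked fit called 12.2% of all genes. Mafa, an activator of the insulin genes in mature beta cells, rose 1.73-fold, from 699, 697, 712 and 665 to 1147, 1219, 1109 and 1348 (log2 0.79 ± 0.0534, adjusted p = 1.21e-10). Nkx2-2 and Pax6 rose 1.54-fold and 1.25-fold (adjusted p = 5.02e-09 and 9.07e-07). Pdx1, the homeodomain activator of insulin transcription, rose 1.19-fold: its Control libraries held 1394, 1398, 1314 and 1186 and its BMS-21 libraries 1576, 1580.4, 1550.3 and 1559, without overlap (adjusted p = 0.00104). Neurod1 fell 1.47-fold, from 1441 ± 64.4 to 982 ± 119 (adjusted p = 0.000166).

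Ins1 had 107320.0, 110095, 113244 and 107901 normalised counts in Control and 117326, 117552, 116511 and 117449 with BMS-21, a 1.07-fold difference (log2 0.10 ± 0.0271, adjusted p = 0.0321). The groups did not overlap, but the call was lost in edgeR (adjusted p = 0.0753), with library totals (0.154), and without Control replicate 1, 2 or 4 (0.150, 0.0953 and 0.067) or BMS-21 replicate 1, 2 or 4 (0.0896, 0.0548 and 0.110). Ins2 had 15441, 15439, 19118 and 15499 and 15958, 15603, 17195 and 17180.3, which overlapped (log2 0.01 ± 0.0734, adjusted p = 0.967), and its sign changed with library totals. Reads shared by these paralogs cannot be assigned with certainty. The glucose transporter Slc2a2 and the potassium-channel subunits Abcc8 and Kcnj11 had log2 changes of 0.05, -0.02 and -0.09, none past the threshold without the block.

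Of 25 genes of granule cargo and exocytosis tested, 3 rose and 0 fell (9 and 1 with the block). The share called without the block was 12%, against 5.91% of all genes tested, while the blocked fit called 12.2% of all genes. These 3 were Scg2 and Vgf, secretory granule proteins that are also CREB targets, at 1.21-fold and 1.20-fold, and the vesicle protein gene Syt4 at 1.38-fold (adjusted p = 1.82e-06, 2.12e-05 and 0.00088). Fusion proteins such as Snap25, Stx1a and Vamp2 had log2 changes of 0.003, -0.0044 and 0.08. Of the secreted growth factors and peptides, 4 of 15 tested rose (26.7%, and 5 genes with the block) and 0 fell. Hbegf, a ligand of the EGF receptor, rose 2.79-fold, from 806 ± 73.8 to 2253 ± 209.8 (adjusted p = 4.89e-08). Stanniocalcin 1 (Stc1) rose 1.73-fold and Vegfa, a highly abundant angiogenic factor gene of islets, 1.35-fold, from 17537 ± 789 to 23591 ± 614 (adjusted p = 2.17e-05 and 2.11e-09). The fourth was Wnt4, a WNT ligand (log2 0.21 ± 0.055, adjusted p = 0.0233), which did not pass with library totals (0.0626), without Control replicate 2 or 4 (0.106 and 0.0797) or without BMS-21 replicate 1 or 3 (0.0768 and 0.0804).

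Among genes for receptors and for cAMP signalling itself, calls were about as frequent as among all genes. Of 26 genes for receptors, adenylyl cyclases, protein kinase A and EPAC, 1 rose and 1 fell, which is 7.69% against 5.91% of all genes tested. With the block 2 rose and 2 fell, the additional calls being Gnas, the stimulatory G-protein alpha subunit (log2 0.25, adjusted p = 0.443 without and 8.62e-06 with the block), and Gcgr, the glucagon receptor (log2 -0.13, 0.0769 and 4.4e-06). Glp1r, the GLP-1 receptor, had 1694, 1795, 1811 and 1832 normalised counts in Control and 1677, 1788, 1721 and 1743 with BMS-21, with overlap (log2 -0.04 ± 0.0389, adjusted p = 0.723). The protein kinase A genes that passed were the regulatory subunit Prkar1a (log2 0.13 ± 0.0356, adjusted p = 0.0291) and the catalytic subunit Prkacb (log2 -0.14 ± 0.0379, adjusted p = 0.0244). Both calls were fragile. Prkar1a did not pass with library totals (adjusted p = 0.101), without any single Control library (0.0501 to 0.109) or without BMS-21 replicate 1 or 2 (0.159 and 0.0742). Prkacb did not pass without Control replicate 1 or 2 (0.064 and 0.0974) or BMS-21 replicate 1, 3 or 4 (0.0722, 0.061 and 0.0844). Of 13 phosphodiesterase genes, whose products degrade cyclic nucleotides, Pde4d rose 1.43-fold, from 271 ± 23.7 to 388 ± 37.7 (adjusted p = 5.11e-05). Pde2a fell 1.15-fold (adjusted p = 0.000807). Calls were 15.4% of this list, and with the block 2 rose and 1 fell, while that fit called 12.2% of all genes. Pde4b, at 45.9 ± 11.4 in Control and 54.8 ± 8.45 with BMS-21, did not pass (adjusted p = 0.523).

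In the insulin and IGF pathway, 2 of 20 tested rose and 1 fell, which is 15% against 5.91% of all genes tested. Besides Irs2, the kinase subunit Pik3r1 rose 1.33-fold and the transcription factor Foxo1 fell 1.22-fold (adjusted p = 0.000371 and 0.000823). Among the 24 sterol and fatty acid synthesis genes tested, 7 were higher and 3 lower (41.7% called). With the block 7 were higher and 6 lower, while that fit called 12.2% of all genes. The sterol transporter Stard4 rose 2.60-fold, from 332 ± 8.82 to 878 ± 160.4, and Insig1 and Idi1, both known targets of the sterol regulator SREBP2, rose 1.38-fold and 1.35-fold (adjusted p = 0.000108, 8.82e-09 and 0.0007). Sqle, a target of the same regulator, had a log2 change of -0.03 without passing. Of 30 genes of the cell cycle and the MYC network, 5 rose and 2 fell (23.3% called). Cyclin D1 (Ccnd1) rose 2.62-fold, from 81.5, 64.9, 63.0 and 77.4 to 222, 174, 167 and 197, and the inhibitor Cdkn1b 1.27-fold (adjusted p = 2.85e-09 and 4.29e-06), while the proliferation markers Mki67 and Top2a had log2 changes of -0.03 and -0.04.

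In the circadian clock, 2 of 17 rose and 2 fell, which is 23.5% against 5.91% of all genes tested. The period gene Per1, a CREB target, had 932, 953, 962 and 907 in Control and 3614, 3328, 3006 and 3267 with BMS-21, a 3.51-fold rise (adjusted p = 1.04e-18), whereas Per2 had a log2 change of 0.04 ± 0.0636 (adjusted p = 0.875). The repressor Cry2 rose 3.39-fold, and the repressors Nr1d1 and Bhlhe40 fell 1.79-fold and 1.72-fold (adjusted p = 0.000188, 0.000214 and 1.1e-11). Of 25 genes of the unfolded protein and integrated stress response, 1 rose, Ppp1r15a (1.55-fold, adjusted p = 0.0194), which is 4% against 5.91% of all genes tested. With the block 8 rose, while 6.7% of all genes were higher in that fit. Among these 8, Trib3 and Hspa5 had log2 changes of 0.37 and 0.12 and adjusted p of 0.341 and 0.626 without the block and of 2.38e-20 and 8.95e-08 with it. In the apoptosis list, 2 of 17 rose (Birc2 and Birc3, inhibitors of apoptosis) and 2 fell, among them Bbc3, a pro-apoptotic BH3-only gene. Calls were 23.5% of this list. With the block 4 of its members rose and 2 fell, while that fit called 12.2% of all genes. The log2 changes of Birc2, Birc3 and Bbc3 were 0.26, 0.46 and -0.55 (adjusted p = 0.000967, 0.0234 and 2.92e-05). Ppp1r15a lost its call without BMS-21 replicate 1 or 4 (adjusted p = 0.0546 and 0.0639), and Birc3 in DESeq2 (0.145) and without replicate 2 or 3 of Control (0.0675 and 0.0566) or of BMS-21 (0.0779 and 0.0758).

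Among 25 channel genes, Kcnk1 rose 1.16-fold and Kcnh6 fell 1.15-fold (adjusted p = 0.0356 and 0.0141). The share called was 8%, near the 5.91% of all genes tested. With the block 1 rose and 4 fell, while that fit called 12.2% of all genes. Kcnk1 lost its call in DESeq2 (adjusted p = 0.155), with library totals (0.0765), with no filter (0.0614), without Control replicate 2, 3 or 4 (0.094, 0.0903 and 0.0733) and without BMS-21 replicate 1, 2 or 4 (0.155, 0.0567 and 0.070). Kcnh6 lost it without Control replicate 1 or 3 (0.0666 and 0.0657) or BMS-21 replicate 4 (0.0807). For the lists of CREB regulators, MAP kinase phosphatases, clock, sterol synthesis and apoptosis genes the median was below 0 and the mean above it. Of 13 glycolysis genes, 0 passed in limma, with 3 at an unadjusted p under 0.05, and edgeR and DESeq2 each called 2. With the block 3 rose and 1 fell, Pfkfb3 among the former (log2 0.47, adjusted p = 0.108 without and 1.14e-17 with the block in limma, and 0.00186 in edgeR and 0.0202 in DESeq2 without it).

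**Figure D3:**
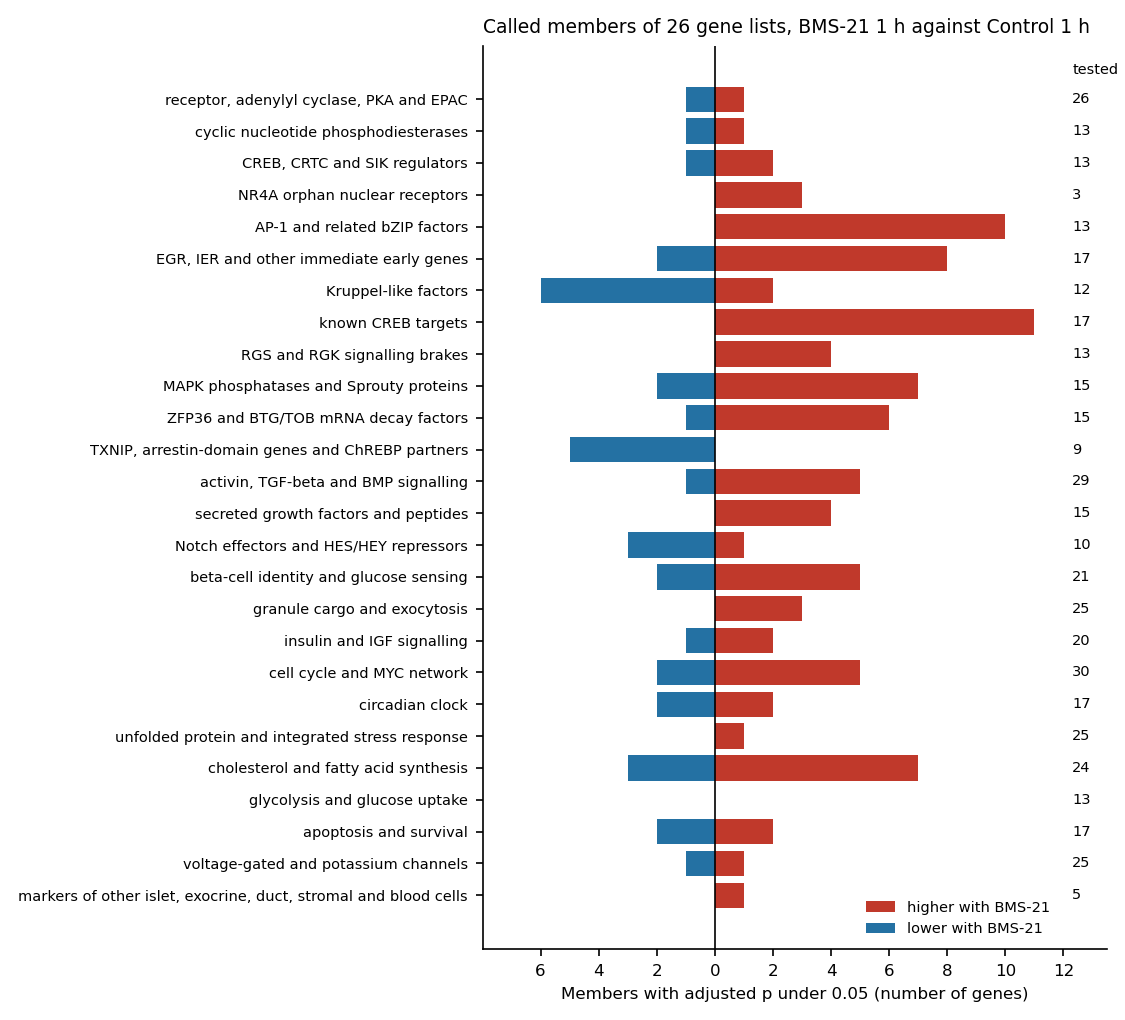
Number of genes higher (right) and lower (left) with BMS-21 at an adjusted p under 0.05 in each of 26 gene lists, with the number tested at the right edge. The list of known CREB targets has the longest bar to the right, at 11 of 17, and the Kruppel-like factors have the longest to the left, at 6 of 12, against 3.54% and 2.37% of all genes tested.

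A microRNA gene was among the larger increases, at a depth near the floor. Mir132, a gene that CREB is known to drive, had 1 read in each Control library and 28, 12, 21 and 17 reads in the BMS-21 libraries. The 4 and 78 reads summed over groups gave a ratio of 19.7 per library total, with a 95% exact interval of 7.38 to 74.0 for counting error only. It lies outside the naming rule, with a mean of 10.2 normalised counts, and was chosen after its values were seen (log2 3.33 ± 0.37, adjusted p = 6.88e-07). Its mean was 0.982 in Control and 19.5 with BMS-21. Mir132 therefore met the filter, a mean of at least 10, only through the BMS-21 libraries, and its adjusted p is not free of that choice. The libraries were made from mRNA, so these reads belong to the table's entry for the precursor's gene and do not measure the mature microRNA. Its mature forms in the RefSeq table (GRCr8, chromosome 10, plus strand) are shown to identify the gene, with the seed (bases 2 to 8) in capitals.
rno-miR-132-5p, chr10:60522055-60522076: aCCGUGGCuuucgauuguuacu
rno-miR-132-3p, chr10:60522091-60522112: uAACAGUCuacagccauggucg

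GLP-1 was given at 100 nM and BMS-21 at 1 µM, so the doses differ and the values are set side by side. Against the same Control libraries limma called 837 genes for GLP-1 (6.58% of 12715). All 24 genes with the largest changes under BMS-21 also passed for GLP-1 in the same direction, and the shared controls enter both values. Fosb had a log2 change of 5.12 with BMS-21 and 5.10 with GLP-1, Nr4a1 4.31 and 4.32, Fst 3.41 and 3.72, Mycn -1.54 and -1.41, and Klf2 -0.98 and -0.55.

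Compared directly, library against library, 0 of 12672 genes (0%) differed between BMS-21 and GLP-1 at 1 h in limma. At an unadjusted p under 0.05 there were 432, edgeR called 0 (420 unadjusted) and DESeq2 called 0 (178 unadjusted). On simulated counts at this size limma recovered 73.1% of genes changed 1.25-fold and 89.6% of those changed 1.5-fold, with 5.98% false calls. The simulation held a planted set of changed genes and drew each library independently. The adjusted threshold is stricter where fewer genes change. These shares therefore do not tell how many differences were missed where 0 genes passed. For the 24 genes the log2 difference, BMS-21 minus GLP-1, lay between -0.43 (Klf2, ± 0.169) and 0.21 (Klf4, ± 0.0595), with SEs of 0.0334 to 0.178. A missed threshold in this fit does not show that the treatments act alike.

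With the replicate block, 28 genes were higher and 57 lower with BMS-21 than with GLP-1 (0.671% of those tested), 4 of them among the 24. Klf4 was higher with BMS-21 by a log2 difference of 0.21, Junb by 0.16 and Txnip by 0.15 (adjusted p = 4.21e-05, 5.57e-06 and 5.54e-07), so that Txnip was lowered somewhat less by BMS-21. Over the 4 pairs of same-numbered libraries the log2 difference was 0.13 to 0.28 for Klf4, 0.13 to 0.19 for Junb and 0.10 to 0.19 for Txnip. The blocked fit tests these same differences, so their shared sign adds no support to its calls. Nr4a3 was lower by a log2 difference of -0.13 (adjusted p = 0.0224). Outside these 24, and chosen after their values were seen, Smad7 differed by -0.36, Egr1 by 0.14, Iapp, the gene of islet amyloid polypeptide, by 0.09 and Ins1 by 0.07 (adjusted p = 1.95e-05, 0.000303, 1.44e-07 and 1.95e-05).

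**Figure D4:**
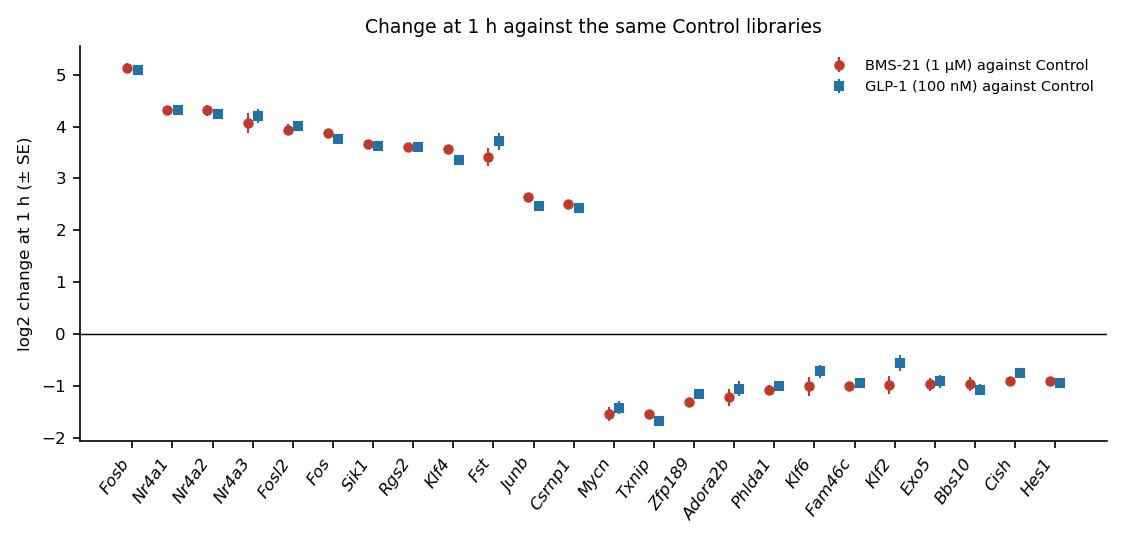
log2 change at 1 h (± SE) of the 24 genes with the largest changes under BMS-21, for BMS-21 at 1 µM and GLP-1 at 100 nM against the same 4 Control libraries. The paired points lie on the same side of 0 for all 24 genes, and the doses and shared controls limit what their closeness shows.

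The 1 h response was then set against the response at 6 h, each relative to Control of its own time, in 1 edgeR fit over 16 libraries. The response differed between the times for 2753 of 12985 genes (21.2%), 1427 being higher (11%) and 1326 lower (10.2%) at 6 h. Of the 98 genes in this fit that had risen at least 2-fold at 1 h, 70 had a smaller response at 6 h and 5 a larger one, and their median log2 change was 1.59 at 1 h and 0.58 at 6 h. At 6 h 74 of the 98 were still higher than Control at an adjusted p under 0.05. Because genes chosen for a large value at 1 h enter with that value, the fall of the median is in part fixed by the choice.

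Of the 12 largest increases, 11 had a smaller response at 6 h. Fosb went from a log2 change of 5.17 to 1.12, Nr4a3 from 4.09 to 0.58 and Junb from 2.64 to 0.51 (adjusted p of the difference 5.97e-09, 3.33e-09 and 4.82e-16). Nr4a1 and Sik1 went from 4.31 and 3.66 to 1.39 and 1.56 (4.36e-19 and 1.26e-13). The exception was Fst, at 3.52 and 3.65 (adjusted p = 0.867). Among the 12 largest decreases, 7 had moved back toward or past Control: Txnip went from -1.53 to -0.90, Phlda1 from -1.07 to 0.01 and Cish from -0.90 to 0.34 (8.91e-08, 1.23e-05 and 3.4e-11). Mycn, Adora2b, Fam46c and Hes1 had -1.51, -1.27, -0.98 and -0.80 at 6 h, and no difference from 1 h was detected for them or for Klf2 (adjusted p = 0.893, 0.933, 0.917, 0.681 and 0.102).

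Other genes changed late. The 5 largest gains from 1 h to 6 h were in Sv2c, a synaptic vesicle protein gene (log2 0.03 at 1 h and 2.89 at 6 h), the kinase gene Camk4 (0.02 and 2.46), Asb4 (1.36 and 3.72), the myosin light chain kinase Mylk (0.08 and 2.32) and the IGF1 receptor Igf1r (0.06 and 2.26). Their adjusted p for the difference was 1.39e-13, 2.33e-15, 6.37e-08, 3.97e-19 and 1.24e-14. Within the 1 h lists, Stc1 and Ccnd1 grew from 0.79 and 1.40 to 2.22 and 2.62 (6.31e-13 and 3.48e-06). Insig1 turned from 0.47 to -0.38 (1.15e-09).

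**Figure D5:**
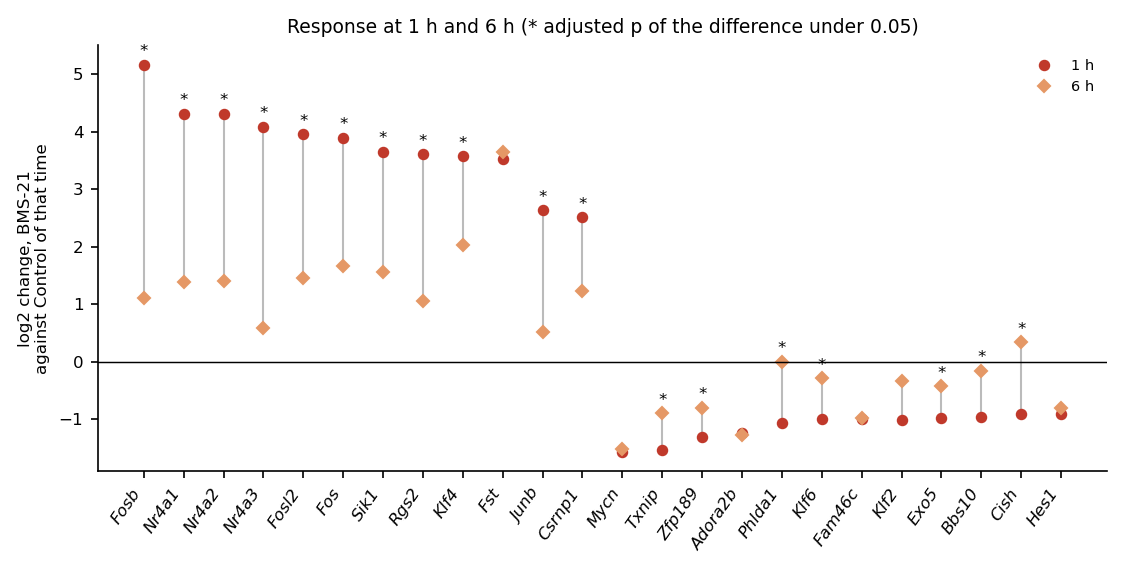
log2 change of BMS-21 against the Control of the same time (edgeR) at 1 h (circles) and 6 h (diamonds) for the 12 largest increases and 12 largest decreases at 1 h, with lines joining the times of a gene. Stars mark an adjusted p of the difference under 0.05, which 18 of the 24 genes carry, and Fst is the only increase without one.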

How the data were processed

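INS-1 mRNA libraries (TruSeq RNA v2, which does not mark strand) gave the reads, per the labels. The submitters' processing notes name the build Rnor_5.0 and TopHat2 2.0.12, Bowtie2 2.2.3.0, SAMtools 0.1.19.0, Subread, DESeq and DESeq2 1.6.3 without roles, and the annotation version is not given in the sources used here. The deposited values are the authors' normalised counts (a signal, whole multiples of 1 step per library in 100% of values within 0.001), and the reads were recovered from them. The deposited table also holds the authors' log2 fold change and adjusted p-value. By that p-value 633 genes pass 0.05 in the authors' deposited table, and 613 of them are called here.

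Genes were matched by Ensembl identifier, since 25 symbols in the table had become dates. Genes with a mean of at least 10 were tested with limma 3.58.1 (trend, robust, R 4.3.3) on log2(value + 1), where a fold understates the change of low genes. Alternatives were other pseudocounts (0.5 and 5), a stricter filter (mean 50), no filter, TMM factors, library totals, edgeR 4.0.16 and DESeq2 1.42.0 on the recovered reads, the replicate block, leaving out each library, and replicates 1 and 2 or 3 and 4 alone. edgeR with the block was added after seeing the data. The edgeR test without a block called 448 higher and 302 lower. The time comparison used edgeR (quasi-likelihood, TMM) on reads. On simulated counts limma recovered 59.7, 92.5 and 98.5% of genes changed 1.25-, 1.5- and 2-fold between BMS-21 and Control at 1 h, with 1.76% false calls.

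Same-numbered libraries of BMS-21 and Control correlated in their deviations from the group means by 0.138, 0.200, 0.228 and 0.153. Between replicates 1 and 2 of opposite groups the values were 0.110 and 0.109, and between 3 and 4 they were 0.0805 and 0.0672. The pattern is thus in part replicates 1 and 2 against 3 and 4. Libraries were paired by number, which these values do not settle. The check for duplicated libraries found none. Named genes were the 12 largest increases and 12 largest decreases among called genes whose symbols are official, whose mean reached 50 and whose groups did not overlap. To these were added up to 4 members of each list with the smallest adjusted p, and Pdx1, Ins1, Ins2, Glp1r, Pde4b, Irs2, Per1, Crem, Fos and Nr4a1. The 26 lists hold 534 different genes, of which 504 matched and 429 were tested. Some genes of the lists are counted but not reported here by name. List members given beside them, most of which did not pass, were chosen after their values were seen. Members, lists and this rule were chosen with earlier results of these data known. Values after ± are SEs beside log2 changes and SDs (n = 4) beside means.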

Additional observations from a re-analysis of the deposited data

Results flagged for a closer look

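In 11 of the 186 groups of 4 libraries examined for the genes of the naming rule reported here, 1 library stood apart from the other 3 by Dixon's test, which chance alone does in about 1 of 20 groups. Low libraries were Klf4 in Control replicate 2 (76.9 normalised counts, others 98.2 to 102), Rem2 in Control replicate 3 (755, others 801 to 806), Pik3r1 in Control replicate 2 (657, others 740.2 to 749.7), Bhlhe40 in BMS-21 replicate 4 (2316, others 2569 to 2607) and Kcnh6 in BMS-21 replicate 4 (790.3, others 861 to 871). High libraries were Klf6 in BMS-21 replicate 3 (161, others 100.1 to 106), Prkacb in BMS-21 replicate 2 (1570.4, others 1484 to 1498), Hes6 in Control replicate 1 (378, others 333 to 339), Insig1 in BMS-21 replicate 4 (2373, others 2193 to 2216), Kcnk1 in BMS-21 replicate 1 (359, others 328 to 333) and Ins2 in Control replicate 3 (19118, others 15439 to 15499).

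The response at 6 h differed from that at 1 h, in edgeR's test of the difference, for 18 of the 24 genes with the largest changes. The log2 difference, 6 h minus 1 h, was -4.05 for Fosb, -2.92 for Nr4a1, -2.90 for Nr4a2, -3.51 for Nr4a3, -2.50 for Fosl2, -2.23 for Fos, -2.10 for Sik1, -2.55 for Rgs2, -1.53 for Klf4, -2.12 for Junb and -1.27 for Csrnp1. It was 0.63 for Txnip, 0.51 for Zfp189, 1.08 for Phlda1, 0.71 for Klf6, 0.55 for Exo5, 0.80 for Bbs10 and 1.24 for Cish.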

How the results depend on the processing

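The counts of the 1 h comparison (450 higher, 301 lower) became 851 and 700 with the replicate block and 831 and 695 in edgeR with the block, and replicates 3 and 4 alone gave 179 lower genes. Leaving out each library gave 373 to 445 higher and 216 to 313 lower. Against GLP-1 (0 and 0) the block gave 28 higher and 57 lower, and edgeR with the block 29 and 58. Of the 92 genes past the threshold that the naming rule chose, 72 kept their direction and call in all alternatives that gave a value, and 20 lost the call in at least 1, mostly with replicates 3 and 4 alone or with 1 library left out. The log2 change of Ins2 (0.0146) became -0.0162 with library totals and -0.00219 with replicates 3 and 4 alone, and ranged from -0.0116 to 0.0912 when single libraries were left out. The counts of 6 h against 1 h stayed within 1.5 times. With the block, 749 of the 751 genes called without it passed, and 802 others passed as well. Of the 52 list counts, 36 moved by over 1.5 times in at least 1 alternative, most of them small numbers. With 4 libraries a group and at this depth, changes of 1.25-fold were recovered in 59.7% of simulated cases, so smaller differences were often not detectable.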
